A study of Mus musculus with 6 samples.

Results

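The genes described here were 8 markers of the ventral telencephalon and its GABAergic (inhibitory) neurons: Dlx1, Dlx2, Dlx5, Dlx6, Gad1, Gad2, Gsx2 and Lhx6. They were chosen by name from the 17068 genes of a bulk RNA-Seq count table, with earlier results of these data known. All 8 were in the table after the authors' filter on low counts. The samples were lateral cortex of 6 female c57/bl6 embryos at embryonic day (E) 12.5. Controls 1, 2 and 4 were Cre-negative Foxp1 fl/+ embryos, and control 3 was a Cre-negative Foxp1 fl/fl embryo. The 2 Foxp1cKO embryos were Foxp1 fl/fl;Emx1Cre, so every embryo carried at least one floxed Foxp1 allele and Cre was present in the Foxp1cKO embryos alone. Emx1 directs Cre to the dorsal telencephalon (the pallium), so cells born in the ventral telencephalon are not its main target. Control 3 is the sole fl/fl control, so a property of that genotype and a property of that one library cannot be told apart.

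The ganglionic eminences of the ventral telencephalon produce GABAergic neurons, whereas the cortical pallium produces glutamatergic ones. Gsx2 marks ventral progenitors, Dlx1 and Dlx2 act in the commitment of their progeny, and Dlx5 and Dlx6 follow them. Lhx6 marks interneurons of the medial ganglionic eminence, many of which migrate tangentially into the cortex, and Gad1 and Gad2 encode the enzymes that make GABA. In bulk tissue, fewer cells of a type and less RNA per cell cannot be told apart.

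Library totals, summed over genes, ran from 50076008 to 78346979 reads. The values below are counts scaled to a common library size (CPM) after edgeR's TMM normalization, and log2 CPM uses a prior count of 2. Foxp1 itself had 59.7 to 79.1 CPM in the controls and 83.2 and 76.8 CPM in the libraries labelled Foxp1cKO (log2 fold change 0.24, adjusted p = 0.468, edgeR quasi-likelihood test, Benjamini-Hochberg adjusted). The gene-level count was thus not lower in those libraries, and all directions below rest on the labels. A gene-level count does not show the reads of single exons. The paper cites earlier work for a significant loss of Foxp1 protein before the stage sampled here. Of 7 endothelial genes, 4 had a higher and 3 a lower estimate, and 1 was called, against 0.152% of all genes. It was Flt1, a receptor for VEGF, with 12.5 to 18.1 CPM in the controls. In the libraries labelled Foxp1cKO, Flt1 had 44.6 and 54.2 CPM (log2 fold change 1.64, adjusted p = 0.0179, edgeR). Flt1 was named after its value was seen. The pallial marker Emx1 had 68.8 to 135 CPM across all 6 libraries, with the lowest value in control 3.

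The Dlx genes form 2 neighbouring pairs. Dlx1 (ENSMUSG00000041911.3, chromosome 2, 71528113 to 71533981, plus strand) and Dlx2 (ENSMUSG00000023391.8, chromosome 2, 71543408 to 71546754, minus strand) lie 9426 bases apart. Dlx5 (ENSMUSG00000029755.10, chromosome 6, 6877805 to 6882085, minus strand) and Dlx6 (ENSMUSG00000029754.13, chromosome 6, 6863334 to 6868568, plus strand) lie 9236 bases apart. Gad1 (ENSMUSG00000070880.10, 70553072 to 70602014), Gad2 (ENSMUSG00000026787.3, 22622205 to 22693874) and Lhx6 (ENSMUSG00000026890.19, 36081953 to 36105408) are also on chromosome 2, and Gsx2 (ENSMUSG00000035946.7, 75075601 to 75077893) is on chromosome 5. Positions are from GENCODE M21 on GRCm38, the assembly also called mm10.

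Because the levels of the 8 genes varied together across libraries, the 100 bases before their RefSeq start sites (GRCm38.p6) were searched on both strands for the homeodomain core TAAT and the E-box CANNTG, which reads the same on both strands. RefSeq starts were matched for 6 of the 8 genes, all but Dlx5 and Dlx6. These 6 genes had 8 start sites, 3 of them of Lhx6. The E-box was found in 4 of the 8 windows (Dlx2, Gad2, Gsx2 and 1 of Lhx6), against 34.4% of all 32851 promoters. TAAT was found in 1 of the 8 windows, of another Lhx6 start, against 27.3% of all promoters. A match is a description of letters, not of a bound site, and its part in the levels was not tested. Of the 4 windows with an E-box, those of Dlx2, the progenitor factor Gsx2 and the interneuron factor Lhx6 are below. They are written 5′ to 3′ in the direction of the gene, with the E-box in capitals. They are chr2:71546755-71546854 (minus strand), chr5:75075501-75075600 (plus strand) and chr2:36105409-36105508 (minus strand).
Dlx2: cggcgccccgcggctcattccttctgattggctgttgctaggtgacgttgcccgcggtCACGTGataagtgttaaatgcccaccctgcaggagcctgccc
Gsx2: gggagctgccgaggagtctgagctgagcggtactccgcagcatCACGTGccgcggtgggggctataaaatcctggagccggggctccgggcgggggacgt
Lhx6: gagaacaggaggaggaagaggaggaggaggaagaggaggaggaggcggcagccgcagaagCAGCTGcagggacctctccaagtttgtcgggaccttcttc

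All 8 genes were highest in control 3, and none separated the groups. Control 3 was the highest of the 6 libraries for 8 of 8 genes, against 21.2% of all genes. Control 1 was the lowest for 6 of 8, against 13.0% of all genes, and control 4 was the lowest for Gad1 and Lhx6. The library labelled Foxp1cKO 1 came second for 7 of the 8, the exception being Lhx6.

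The progenitor factor Gsx2 had 5.05, 8.82, 15.1 and 8.53 CPM in controls 1 to 4, against 13.8 and 13.5 CPM in Foxp1cKO 1 and 2. Both Foxp1cKO libraries stood above controls 1, 2 and 4 and below control 3, so the groups overlapped. The fitted log2 fold change was 0.54 (standard error 0.372, 95% interval -0.34 to 1.41, adjusted p = 0.566, edgeR quasi-likelihood test, Benjamini-Hochberg adjusted).

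Dlx1, a homeobox gene of the committed ventral lineage, had 59.1, 97.7, 188 and 74.3 CPM in controls 1 to 4, against 130 and 98.0 CPM in Foxp1cKO 1 and 2, the second of which lay next to control 2. Its log2 fold change was 0.12 (standard error 0.434, 95% interval -0.90 to 1.15). Its neighbour Dlx2 had 35.3, 59.3, 109 and 43.2 CPM in the controls and 94.3 and 55.1 CPM in the Foxp1cKO libraries. For Dlx2, Foxp1cKO 2 fell below control 2, and the log2 fold change was 0.28 (standard error 0.449, 95% interval -0.78 to 1.34). The adjusted p-values of Dlx1 and Dlx2 were 0.931 and 0.830 in the same edgeR test. The antisense gene Dlx1as shares 335 of the 5396 exon bases of Dlx1 (6.21%), and the strand setting of the counting is not given in the sources used here, so reads in that stretch are uncertain.

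Dlx5 and Dlx6 were lower in level than Dlx1 and Dlx2 and had a wider spread among controls. Dlx5 had 10.6, 18.7, 37.3 and 11.2 CPM in controls 1 to 4 and 28.1 and 15.7 CPM in Foxp1cKO 1 and 2. Dlx6 had 3.42, 6.21, 21 and 5.59 CPM in the controls and 13.2 and 7.74 CPM in the Foxp1cKO libraries. For Dlx6 both Foxp1cKO libraries lay above controls 1, 2 and 4, whereas for Dlx5 Foxp1cKO 2 lay below control 2. The log2 fold changes were 0.17 for Dlx5 (standard error 0.532, adjusted p = 0.924, edgeR) and 0.20 for Dlx6 (standard error 0.690, adjusted p = 0.930, edgeR).

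The GABA-synthesis genes had estimates of opposite sign, neither past the threshold. Gad1 had 48.2, 69.8, 158 and 37.2 CPM in controls 1 to 4 and 73.2 and 71.5 CPM in Foxp1cKO 1 and 2. Gad2 had 57.9, 83.6, 250 and 74.9 CPM in the controls and 157 and 116 CPM in the Foxp1cKO libraries. For both genes the Foxp1cKO libraries lay above controls 1, 2 and 4 and below control 3. The log2 fold change was -0.11 for Gad1 (standard error 0.540, 95% interval -1.39 to 1.16, adjusted p = 0.951, edgeR) and 0.23 for Gad2 (standard error 0.569, 95% interval -1.11 to 1.57, adjusted p = 0.895, edgeR). The sign for Gad1 turned with the scale, since the difference of its mean log2 CPM was 0.12.

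Lhx6 differed from the other genes in its order of libraries. It had 15.2, 17.7, 54.6 and 6.83 CPM in controls 1 to 4 and 17.1 and 13.6 CPM in Foxp1cKO 1 and 2. Both Foxp1cKO libraries fell inside the range of controls 2 and 4. The log2 fold change was -0.62 (standard error 0.735, 95% interval -2.35 to 1.12, adjusted p = 0.755, edgeR quasi-likelihood test, Benjamini-Hochberg adjusted).

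**Figure D1:**
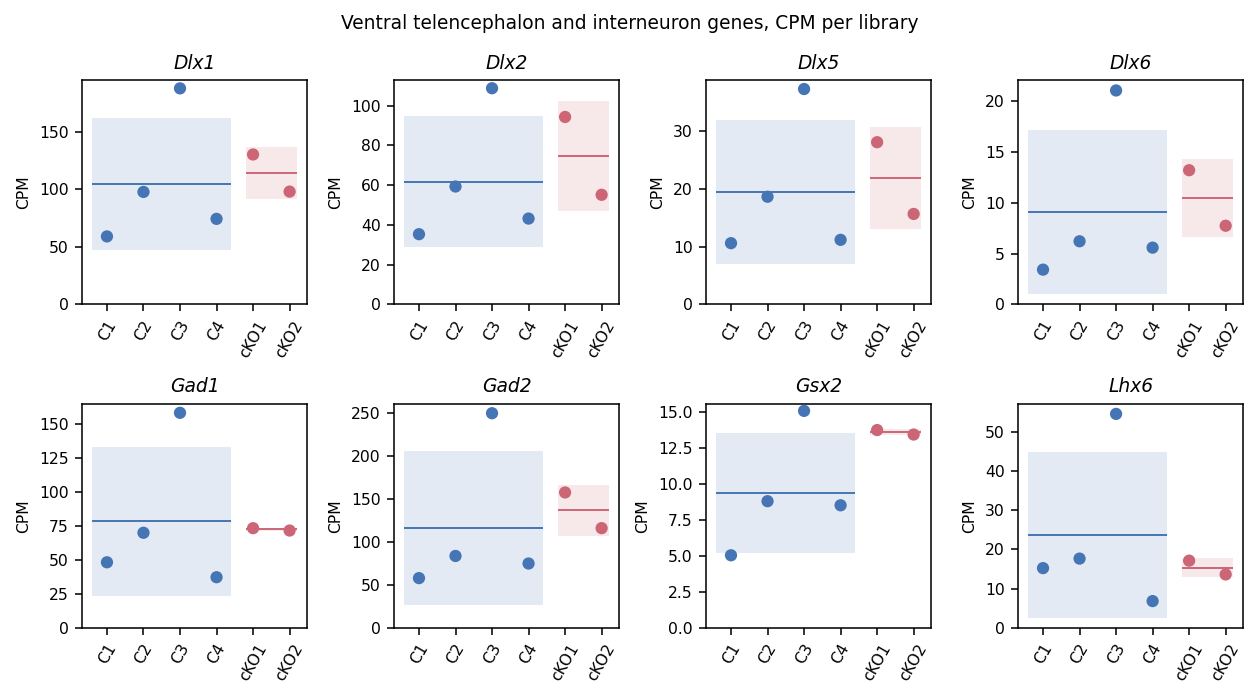
CPM of each of the 8 genes (vertical axis, linear from 0) in controls 1 to 4 (C1 to C4, blue) and Foxp1cKO 1 and 2 (cKO1 and cKO2, red). Lines are group means and shaded boxes are 1 SD either side. Control 3 is the highest point in all 8 panels, from 15.1 CPM for Gsx2 to 250 CPM for Gad2.

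None of the 8 genes was called between the groups (0 of 8 at an adjusted p under 0.05 in edgeR, against 26 of 17068 genes or 0.152%). An unadjusted p under 0.05 was reached by 0 of 8, against 13.0% of all genes. DESeq2 called 0 of 8, against 3.36% of the genes it gave an adjusted p. The intervals are wide, and a p that misses the threshold does not show that the groups were alike: for Dlx6 the interval ran from -1.43 to 1.83 on the log2 scale. Groups that did not overlap were found for 0 of 8 genes, against 24.6% of all genes. An exact permutation test on the summed ranks of 4 libraries against 2 cannot give a two-sided p under 0.133, so none was used.

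The spread among the controls was larger than the group difference for all 8 genes, although barely so for Gsx2. The SD of the 4 controls in log2 CPM ran from 0.64 for Gsx2 to 1.23 for Lhx6. The absolute difference of group means ran from 0.12 for Gad1 to 0.64 for Gsx2, where it was 1.00 times the control SD to 3 digits and just under it. The median of the ratio was 0.413 over the 8 genes and 0.891 over all genes. A difference above the whole control range was seen for 0 of 8 genes, against 16.8% of all genes. Counting error was much smaller than this spread. It was at most 6.9% of the value, for Dlx6, while the controls' coefficient of variation was 44.6% for Gsx2 to 89.8% for Lhx6.

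The controls varied more in these genes than in most. The median control SD was 0.87 over the 8 genes, 0.20 over all genes and 0.14 over the 8073 genes within the same range of level. Of all genes, 8.49% had a control SD at or above that of Gsx2, the least variable of the 8. Without control 3 the median SD was 0.45 over the 8 genes and 0.17 over all genes. The gap between both Foxp1cKO libraries had a median of 0.43 over the 8 genes and 0.15 over all genes. A gap and an SD are unlike measures, so these values do not compare the spread within the groups.

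**Figure D2:**
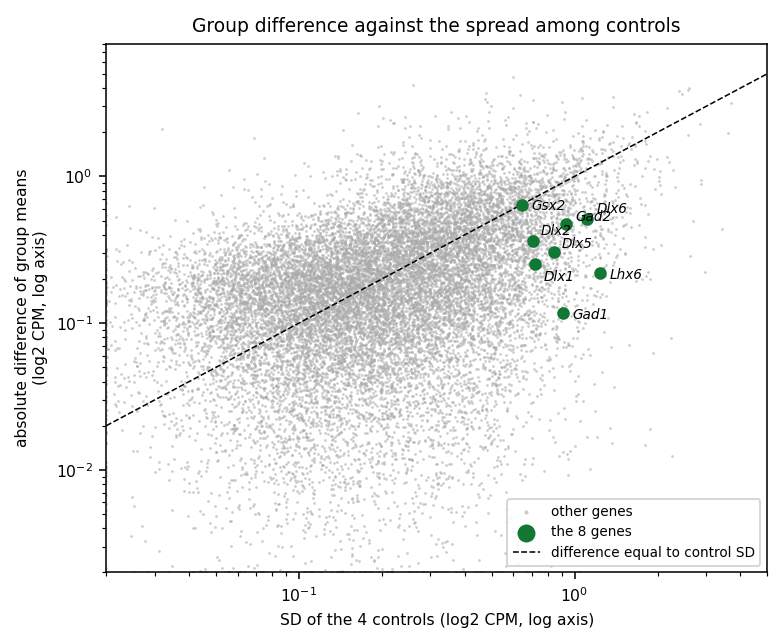
Absolute difference of group means in log2 CPM (vertical, log axis) against the SD of the 4 controls in log2 CPM (horizontal, log axis) for every gene (grey, the smallest values drawn at the edge) and for the 8 genes (green). The dashed line marks a difference equal to the control SD. All 8 lie on or under it, Gsx2 closest and Gad1 farthest.

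Control 3 exceeded the mean of the other controls by 2.02-fold for Gsx2, 2.37-fold for Dlx2, 2.44-fold for Dlx1, 2.77-fold for Dlx5, 3.05-fold for Gad1, 3.46-fold for Gad2, 4.12-fold for Lhx6 and 4.15-fold for Dlx6. The highest control was 2.99 (Gsx2) to 7.99 (Lhx6) times the lowest. The summed CPM of the 8 genes was 235, 362, 832 and 262 in controls 1 to 4 and 527 and 391 in Foxp1cKO 1 and 2. The direction of the group difference therefore depended on the control used. The median difference of the 8 genes in log2 CPM was 1.00 against control 1, 0.25 against control 2, -0.86 against control 3 and 0.85 against control 4. Over all genes these medians lay within 0.01 of 0.

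Without control 3 all 8 genes were higher in the libraries labelled Foxp1cKO, and none was called. The controls left were all Foxp1 fl/+, while both Foxp1cKO embryos were fl/fl. In that comparison, Cre and the floxed genotype cannot be told apart. Control 3 was the highest library for all 8 genes, so leaving it out had to raise these estimates. It was the highest for 21.2% of all genes, so the shares over all genes given here are not a like-for-like comparison. The log2 fold changes became 0.55 for Dlx1, 0.68 for Dlx2, 0.68 for Dlx5, 1.03 for Dlx6, 0.47 for Gad1, 0.91 for Gad2, 0.85 for Gsx2 and 0.20 for Lhx6. Their median was 0.68, compared with 0.19 in all 6 libraries and -0.016 over all genes without control 3. Called genes were 0 of 8, against 0.117% of all genes, and the lowest adjusted p was 0.157, for Gad2 (edgeR). An unadjusted p under 0.05 was reached by 5 of 8 (Dlx1, Dlx2, Dlx6, Gad2 and Gsx2), against 17.6% of all genes. Both Foxp1cKO libraries lay above controls 1, 2 and 4 for 5 of 8 (Dlx1, Dlx6, Gad1, Gad2 and Gsx2), against 18.1%. The difference exceeded the range of those controls for 3 of 8 (Dlx6, Gad2 and Gsx2), against 31.2%. Leaving out some other libraries moved the estimates the other way. Without Foxp1cKO 1, 1 of 8 genes (Gsx2) was higher and the median was -0.15, and without control 1, 2 of 8 (Dlx2 and Gsx2) were higher and the median was -0.074. Without control 4, 4 of 8 were higher, with a median of 0.0093. With each of the 6 libraries left out in turn, Gsx2 alone kept its sign throughout, and the other genes changed sign at least once.

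**Figure D3:**
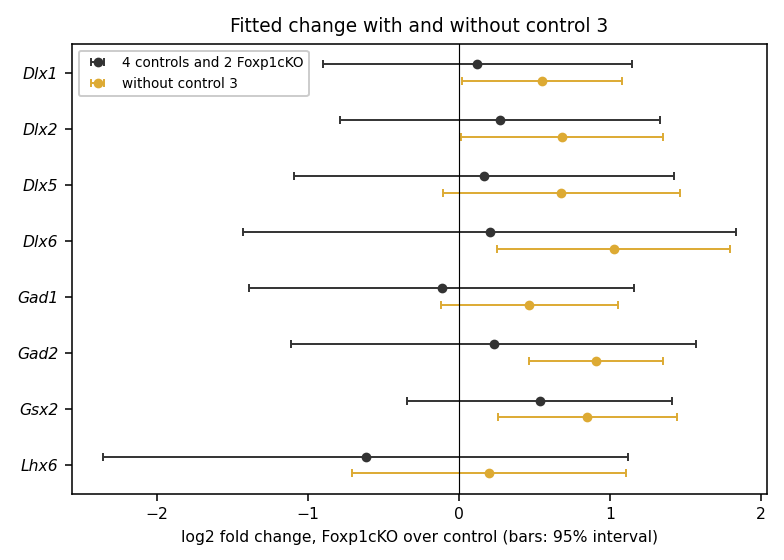
Fitted log2 fold change of Foxp1cKO over control (horizontal axis) for each of the 8 genes, with 95% intervals from edgeR, in all 6 libraries (black) and without control 3 (yellow). In all 6 libraries every interval spans 0, and without control 3 all 8 estimates are above 0, from 0.20 for Lhx6 to 1.03 for Dlx6.

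Per kilobase of exon (RPKM), the mean levels over 6 libraries were in the order Dlx2 (23.1), Gad2 (21), Dlx1 (20.0), Gad1 (9.99), Dlx5 (8.96), Gsx2 (6.48), Lhx6 (4.34) and Dlx6 (4.01). The SD among controls was 11.5 RPKM for Dlx2, 15.2 for Gad2 and 10.7 for Dlx1, so the means of these 3 neighbours lay closer together than the spread between libraries. The same held for Gad1 and Dlx5, with SDs of 7.17 and 5.51 RPKM, and for Lhx6 and Dlx6, with SDs of 4.41 and 3.40 RPKM. Since all genes were measured in the same libraries, a pair can still keep its order within each library.

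Ratios within a library were steadier than the levels. Dlx2 was 1.06 to 1.37 times Dlx1 in RPKM, above Dlx1 in all 6 libraries. Dlx6 was 0.307 to 0.537 times Dlx5, and Gad1 was 0.358 to 0.642 times Gad2. Lhx6 was the least steady, at 0.103 times Dlx1 in control 4 and 0.327 times in control 3.

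Across the 6 libraries, which share the same normalization and include control 3, the 28 pairs of the 8 genes had a median Pearson r of 0.90 in log2 CPM. The lowest was 0.453 for Gsx2 with Lhx6 and the highest 0.991 for Dlx6 with Gad2. Without control 3, the lowest, median and highest r were 0.106, 0.822 and 0.984. Against the mean profile of the 8, Dlx1 (0.991) was the closest and Lhx6 (0.841) and Gsx2 (0.846) the farthest. These are descriptions of 6 points, and no test was made on them.

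By the same measure, the genes with profiles most like the mean of the 8 were Gad1os (r = 0.9975), Thsd7a, Gm14204, Lrfn2, Tcp11l1, Tcerg1l, Ednrb, Tmem266, Ripor2 and Cntnap5b (0.9887), out of 13850 genes with a mean of at least 1 CPM. Of those genes, 398 (2.87%) had an r of at least 0.9. Gad1os, a transcript named for its position opposite Gad1, had 1.87, 2.66, 6.26 and 1.94 CPM in controls 1 to 4 and 3.97 and 3.07 CPM in the Foxp1cKO libraries. It shares 0 exon bases with Gad1.

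Other genes of the ventral lineages were counted from fixed lists. Of 7 other progenitor factors of the ganglionic eminences in the table, 0 were called, 4 had a higher and 3 a lower estimate, and control 3 was the highest library for 6. Nkx2-1, which specifies the medial ganglionic eminence, had 19, 37, 961 and 17 counts in controls 1 to 4 and 54 and 36 counts in Foxp1cKO 1 and 2. In CPM that was 0.307, 0.595, 13.2 and 0.216 in the controls and 1.07 and 0.475 in the Foxp1cKO libraries. Nkx2-1 was thus at 1.07 CPM or less in every library but control 3. In RPKM it was 0.511 times Gsx2 in control 3 and 0.0148 to 0.0457 times in the other libraries.

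Of 18 other interneuron lineage genes, 0 were called and control 3 was the highest library for 10. Lhx8, a factor of the medial eminence, had 845 counts in control 3 and 2 to 37 in the other libraries. Sp9, Erbb4, Sst and Npy were also highest in control 3, whereas Sox6 and Cxcr4 were lowest there. Dlx6os1, an antisense transcript at the Dlx6 locus that shares 0 exon bases with Dlx6, had 252 CPM in control 3, 63.9 to 92.7 CPM in the other controls and 201 and 147 CPM in the Foxp1cKO libraries.

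Of 15 striatal lineage genes, 0 were called, and 13 had a higher and 2 a lower estimate. Their median log2 fold change was 0.46, compared with -0.0044 over all genes. The median of the 15 ran from 0.20 without control 1 to 0.87 without control 3. Control 3 was the highest library for 7 of the 15 and the lowest for 1 (Ikzf1). Isl1, a marker of striatal projection neuron precursors, had 64.5 CPM in control 3, 6.65 to 14 CPM in the other controls and 30.6 and 20.6 CPM in the Foxp1cKO libraries. Groups that did not overlap were found for 1 of these 15 genes, against 24.6% of all genes. That gene was Foxp2, with 72.6 and 82.5 CPM in the Foxp1cKO libraries against 34.5 to 63.3 CPM in the controls (log2 fold change 0.62, adjusted p = 0.326, edgeR). Penk had 16.4 CPM in Foxp1cKO 2 and 0.660 to 1.67 CPM in the other 5 libraries, so its log2 fold change of 2.76 rested on 1 library. Of 5 other genes of GABA packaging, uptake and breakdown, 0 were called, and control 3 was the highest library for 2 (Slc32a1 and Abat) and the lowest for 1 (Slc6a13, at 0.755 CPM). Slc32a1, the vesicular GABA transporter, had 29.5 CPM in control 3, 8.51 to 13.0 CPM in the other controls and 17.1 and 16.2 CPM in the Foxp1cKO libraries.

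**Figure D4:**
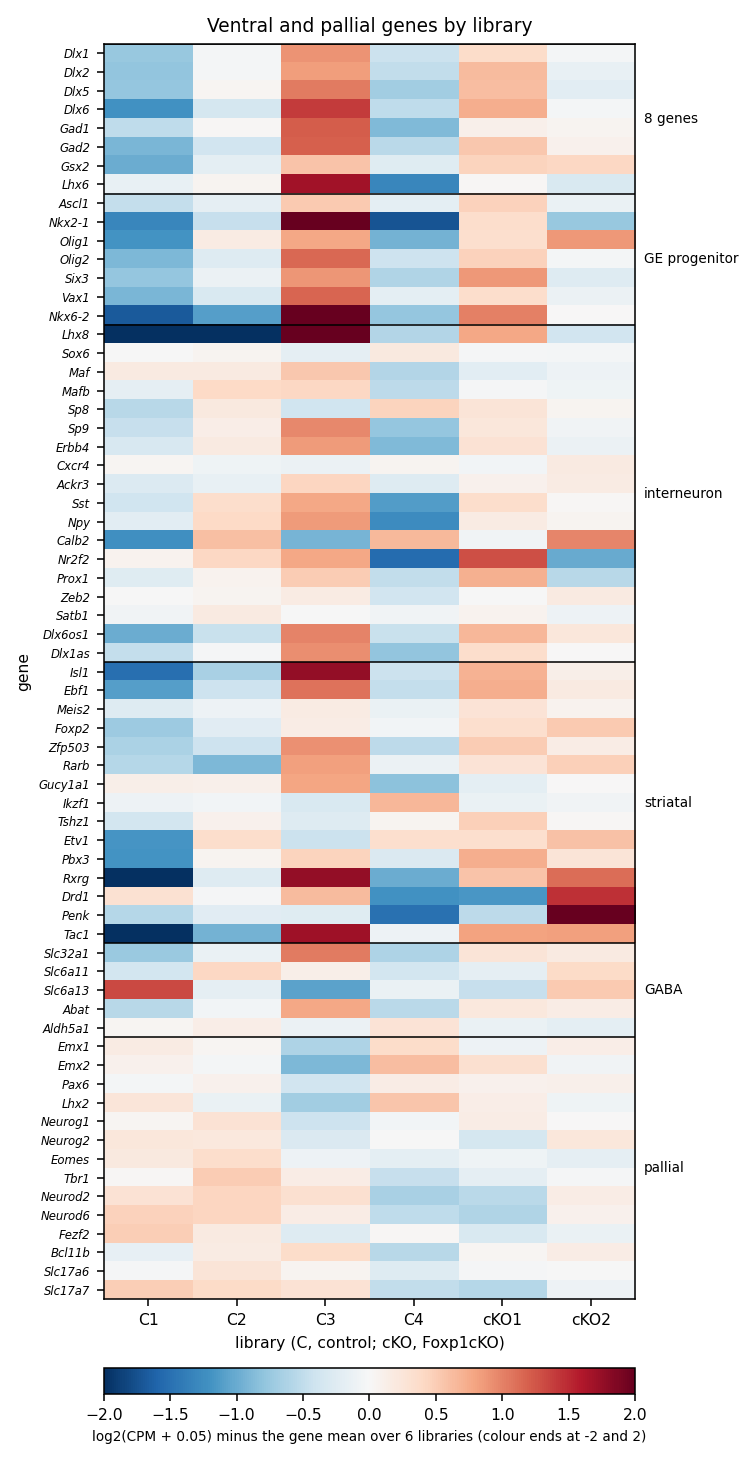
Colour shows log2(CPM + 0.05) of each gene minus its mean over the 6 libraries (red above, blue below, colour ends at -2 and 2), for the 8 genes, 4 lists of ventral genes and the pallial list. The control 3 column (C3) is red for all 8 genes and for Nkx2-1 and Lhx8, and blue for Emx1, Emx2 and Lhx2.

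Markers of some other cells also stood apart in control 3, and those of others did not. Of 14 pallial genes in the table, control 3 was the lowest library for 5 (Emx1, Emx2, Pax6, Lhx2 and Neurog1) and the highest for 1 (Bcl11b). The summed CPM of the pallial list was 2680 to 3369 in the controls, with 2706 in control 3, and 2582 and 2895 in the Foxp1cKO libraries. In mean log2 CPM the pallial list was lowest in control 3, at 7.07 against 7.09 to 7.46 in the other libraries. Of 7 pan-neuronal genes, control 3 was the highest for 6, with summed CPM of 4477 against 2478 to 3874 in the other controls and 3364 and 3223 in the Foxp1cKO libraries. All 6 microglia genes were lowest in control 3, with summed CPM of 20.6 against 28.1 to 34.6 in the other controls and 36.4 and 34.0 in the Foxp1cKO libraries. Red cell genes varied in another way, with summed CPM of 982 to 2806 in the controls, with 1019 in control 3, and 2978 and 3300 in the Foxp1cKO libraries. Control 3 was the lowest library for 2 of 6 radial glia, 0 of 5 Cajal-Retzius, 3 of 7 endothelial and 3 of 4 cortical hem genes. It was the highest for 0 genes of each of these lists. The share of all genes lowest in control 3 was not computed. The part of these differences between libraries in the values of the 8 genes was not tested.

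**Figure D5:**
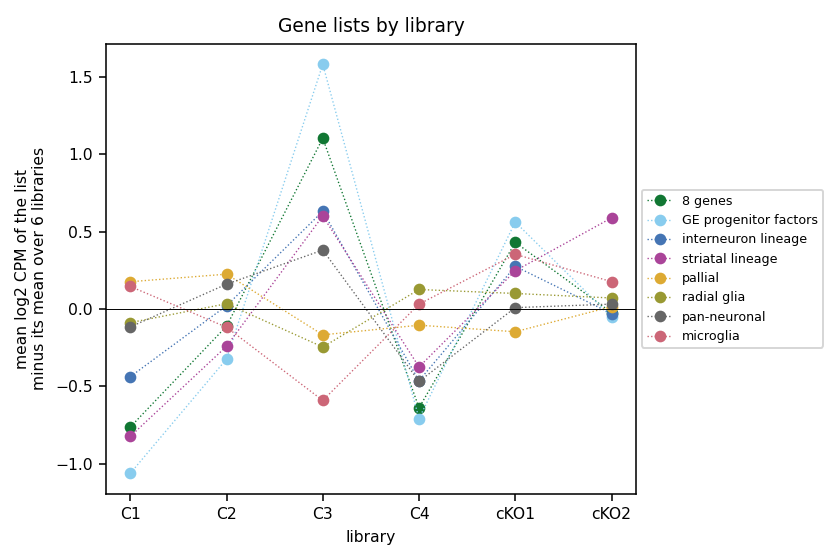
Mean log2 CPM of each gene list minus its mean over the 6 libraries (vertical axis) in controls 1 to 4 (C1 to C4) and Foxp1cKO 1 and 2 (cKO1 and cKO2). Dotted lines only join the points of one list. In control 3 the 8 genes, the ganglionic eminence (GE) factors and the interneuron, striatal and pan-neuronal lists are at their highest. The pallial, radial glia and microglia lists are at their lowest there.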

How the data were processed

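The authors made stranded libraries, aligned paired-end reads to mm10 (Gencode version 17) with STAR, counted genes with HTSeq 0.9.1 in union mode and removed low genes. They deposited whole, unnormalized counts, together with VST values, on a log2 scale. The main test was edgeR 4.0.16's quasi-likelihood test (R 4.3.3) on the counts of all 17068 genes, normalized by TMM, with group as the sole term and Benjamini-Hochberg adjustment. The litter in the authors' DESeq2 model was not used here. Standard errors were derived from the fitted change and its F statistic, and intervals are 95%. Alternatives were DESeq2 1.42.0, limma 3.58.1 on the VST values, other scalings and filters, each library left out, and a replicate block. Symbols came from GENCODE M21, in which 17047 identifiers were found ignoring version. RPKM used its union exon lengths. Genes named outside the 8 were taken from the lists, the 10 likest profiles, or, for single examples, after their values were seen. The 8 genes and the lists were chosen with earlier results of these data known, and 2 listed genes are not reported here. The labels do not say whether embryos share a litter, so p-values measure the spread between these libraries. A floor of 3 counts was 0.0381 to 0.0596 CPM, for counting error only.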

Additional observations from a re-analysis of the deposited data

Results flagged for a closer look

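In the 4 controls, 10 of the 53 genes of the ventral lists had 1 library far from the rest by Dixon's test, and in all 10 it was control 3, on the high side. For normal values the threshold gives about 1 in 20 such genes, and these genes vary together, so they are not independent. The values were CPM without a log, and the share over all genes was not computed. The lists were written with earlier results of these data known, so the count is a description and not a test against chance. Of the 8 genes, Dlx6 (21 CPM against at most 6.21 in the other controls) and Gad2 (250 against 83.6 CPM) were among them. Nkx2-1 had 13.2 CPM in control 3 against at most 0.595 in the others, Lhx8 11.6 against 0.254 CPM and Nkx6-2 2.95 against 0.254 CPM. Ackr3 had 47.8 against 32.2 CPM and Dlx6os1 252 against 92.7 CPM. Among striatal genes, Isl1 had 64.5 against 14 CPM, Ebf1 81.5 against 28.7 CPM and Zfp503 31.9 against 12.7 CPM.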

How the results depend on the processing

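None of the 8 genes was called under any alternative but one, given below. The number of all genes called was 26, and became 507 with DESeq2, 13 with at least 100 counts in every library and 2 to 96 with 1 library left out. The replicate numbers 1 and 2 are shared by both groups, but the labels do not say that they mark a litter, and deviations of same-numbered libraries correlated at -0.117. With the replicate block, to which controls 3 and 4 bring no partner, 0 genes were called and 0 of the 8. In that edgeR fit an unadjusted p under 0.05 was reached by 3027 of 17068 genes and by 2 of the 8 (Gad2 and Gsx2). The median log2 fold change of the 8 was 0.61 there, and 7 of them were higher. After seeing that correlation, a crossed replicate block (control 1 with Foxp1cKO 2, control 2 with Foxp1cKO 1) was added, and it called 1301 genes and 6 of the 8. It is the one setting that called any of the 8, it was chosen after seeing the data, and no label gives that pairing. Both block fits leave 1 residual degree of freedom. Of 112 values of the 8 genes under alternatives, 96 kept their direction and 16 reversed. Gad1 reversed to 0.11 with limma on the VST values, 0.32 with the replicate block and 0.32 with the crossed block. With 1 library left out, log2 fold changes ran from -0.096 to 0.55 for Dlx1, -0.16 to 0.68 for Dlx2, -0.31 to 0.68 for Dlx5, -0.23 to 1.03 for Dlx6, -0.35 to 0.47 for Gad1, -0.015 to 0.91 for Gad2, 0.31 to 0.85 for Gsx2 and -0.93 to 0.20 for Lhx6. The median of the 8 ran from -0.15 to 0.68, lowest without Foxp1cKO 1 and highest without control 3, and the number with a difference above the control range ran from 0 to 3. The causes were not tested. Counting error of the 8 genes was below the spread between controls.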
